A study of Mus musculus with 4 samples.

Results

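The genes that encode the cytoplasmic initiation factors (eIF) and elongation factors (eEF) of translation, with their direct regulators and modifying enzymes, were examined in mouse blood cells. Members were taken by symbol from the deposited count table: every gene whose name begins with Eif1 to Eif6, Eef1 or Eef2, apart from the eIF2 kinases (Eif2ak). This rule found 61 of the 15093 genes in the table. A few of these symbols belong to enzymes or binding partners rather than to factors, among them the eEF1A methyltransferases (Eef1akmt1, Eef1akmt2, Eef1akmt4 and Eef1aknmt). Together the 61 genes held 287021 of 23692981 unique molecular identifiers (UMIs), or 1.21%. A UMI tags 1 captured RNA molecule near its 3′ end, so levels below are CPM (UMIs of a gene per 1000000 UMIs of the sample, with the sample totals scaled by TMM, a factor for differences in RNA composition) and were not divided by transcript length.

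The cells were peripheral blood mononuclear cells of 4 female wild-type C57BL/6 mice, 3.2 ± 0.3 months old. The ear skin of 2 NTP-treated mice had been exposed for 10 min to non-thermal plasma (NTP), a partly ionized gas, from an argon plasma jet, while 2 untreated mice were only anaesthetized. Blood was drawn 120 min after irradiation in the NTP-treated mice and 120 min after the onset of anaesthesia in the untreated mice. The starting points differ between the groups, so time under anaesthesia cannot be told apart from the treatment. Single-cell 3′ libraries gave 5794 cells after the filters of the study, with 1524 and 1705 cells in the NTP-treated mice and 993 and 1572 cells in the untreated mice, and the authors assigned every cell to 1 of 12 clusters and 1 of 5 cell types. The mouse, not the cell, is the replicate, so the counts of all cells of a type, or of a cluster, were added up within each mouse.

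The NTP-treated mice gave 7093148 and 6700732 UMIs, against 4653719 and 5245382 UMIs in the untreated mice, with a median of 3832.5 UMIs per cell. By mouse the median was 4480.5 and 3655 UMIs in NTP-treated mice 1 and 2, and 4465 and 3104.5 UMIs in untreated mice 1 and 2. Of 5790 distinct barcodes, 4 occurred in more than 1 mouse. The labels of B, CD4+ T and CD8+ T cells matched their markers. CD4+ T cells also carried some CD8 markers, at 13.4 to 65.2 CPM, against 846 to 950 CPM in CD8+ T cells. The cells annotated as plasmablasts did not stand apart by plasmablast genes: Jchain, a part of secreted antibody, had 0 UMIs in them, and the sum of 6 plasmablast markers was 220 to 267 CPM, against 243 to 273 CPM in B cells. They carried the B cell markers at 6060 to 7781 CPM, against 4216 to 4839 CPM in B cells. The cells annotated as NK cells (13 to 22 per mouse) carried T cell markers at 2426 to 2653 CPM and CD8 markers at 567 to 809 CPM, so they are described under their annotation and were not tested. In plasmablasts of untreated mouse 1, red blood cell markers summed to 3180 CPM, against 11.6 to 100 CPM in the other mice.

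Translation begins when a small ribosomal subunit, held by the large eIF3 scaffold and loaded with initiator tRNA by eIF2, is recruited to the capped mRNA by eIF4F, a complex of the cap-binding protein eIF4E, the scaffold eIF4G and the helicase eIF4A. eIF1, eIF1A and eIF5 then govern scanning and choice of the start codon, and eIF5B joins the large subunit. During elongation eEF1A delivers each aminoacyl-tRNA, the eEF1B subunits recharge eEF1A with GTP, and eEF2 moves the ribosome by a codon. Resting lymphocytes translate little and are known to raise translation strongly upon activation, partly through mTORC1, which inactivates the eIF4E-binding proteins. mTORC1 also controls mRNAs that start with a C followed by a run of C and T, the terminal oligopyrimidine (TOP) mRNAs, which encode ribosomal proteins and several elongation and initiation factors.

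The start sites of the members on which the comparisons below turn are shown because TOP control is read from the first bases of an mRNA, and they include factors that did and did not differ between the cell types. Each line gives the 30 bases from 15 before to 15 after the transcription start annotated by RefSeq (GRCm38.p6), 5′ to 3′ on the strand of the gene, with the longest uninterrupted run of C and T in capitals.
Eef1a1 (chr9:78481710-78481739, minus strand): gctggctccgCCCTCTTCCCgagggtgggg
Eef1b2 (chr1:63176816-63176845, plus strand): tggacctgcagTTCCgccggaagtagccga
Eef2 (chr10:81176616-81176645, plus strand): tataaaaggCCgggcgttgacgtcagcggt
Eif3f (chr7:108934400-108934429, plus strand): tctgttctaggCTCTCTCTCTTTCTCggca
Eif4a1 (chr11:69672409-69672438, minus strand): acaaagtaacgTCacgtcgagttgcagagc
Eif4a2 (chr16:23107453-23107482, plus strand): ccgcggaaaCCCCgtaggagcagggcggcc
Eif4ebp2 (chr10:61452655-61452684, minus strand): ggtaTCgcagcgggacgaccgggcgagagc
The run spanned 10 bases in Eef1a1 and 15 bases in Eif3f, and 2 to 4 bases in the other 5 genes. Starts were found for 47 of the 61 members, several of which have more than 1. A run of at least 8 C or T, searched on the transcribed strand only, lay in 18.0% of the 61 member starts and in 12.4% of the 13994 starts of genes in the count table, and 9 members had one. An annotated start need not be the one used in these cells, so these letters are a description of the windows alone.

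The members differed widely in level. Eef1a1, which encodes eEF1A, had the highest mean over B, CD4+ T and CD8+ T cells and plasmablasts, 4022 CPM, and held 33.3% of all member UMIs. It was followed by Eef1b2 (a nucleotide exchange subunit of eEF1B) with 1177 CPM, Eif1 with 1135 CPM and Eef2 with 554 CPM. Eif3f led the eIF3 subunits with 380 CPM and Eif2s2 (eIF2 beta) the eIF2 group with 260 CPM. Eif5a, with 211 CPM, led a mixed group of subunit joining, eIF5A and eIF6 genes, called the late group or late factors below. Eif4a2, with 182 CPM, led eIF4F and its regulators, called the eIF4F group or eIF4F below. The eIF2B subunits, which recharge eIF2 with GTP, were all low, up to 26.6 CPM for Eif2b2. The lowest members were Eif5a2, a paralog of Eif5a, with 1.59 CPM and Eif3j2 with 1.35 CPM, and 3 members had under 100 UMIs in all cells. Reads of near-identical copies (Eif3j1 and Eif3j2, Eif1a and Eif1ax, and Eef1a1 with its many processed pseudogenes) may have been split or lost in counting, so those levels are uncertain.

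Several factors have a paralog that was far less abundant in these cells. Eif1b, a near copy of Eif1, had 26.2 to 53.4 CPM in plasmablasts, B cells and CD4+ T cells, where Eif1 had 857 to 1304 CPM. Eif5a2 had 1.03 to 2.37 CPM in the 3 mice in which it was found in CD8+ T cells, 1.19 to 3.18 CPM in CD4+ T cells and 2.19 to 3.13 CPM in B cells, and its 50 UMIs in all cells are too few for a comparison. The eIF4E-binding proteins were led by Eif4ebp2 with 155 CPM over the 4 types, against 17.8 CPM for Eif4ebp1 and 7.86 CPM for Eif4ebp3. Eif6, which keeps free large subunits from joining, averaged 44.6 ± 0.709 CPM in CD8+ T cells, 37.1 ± 2.31 CPM in CD4+ T cells, 34.9 ± 8.58 CPM in plasmablasts and 36.2 ± 3.12 CPM in B cells (SD, n = 4 mice), and was called in no contrast. Eif4ebp1 lies at chr8:27260329-27276674 (plus strand) and Eif5a at chr11:69916714-69921958 (minus strand) in the GENCODE annotation of GRCm38, which placed 60 of the 61 members.

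Levels of the elongation factors set the cell types apart, while the means of eIF4F and eIF2B lay closer together. The 9 eEF1 genes summed to 8895 ± 645 CPM in CD8+ T cells, 7146 ± 442 CPM in CD4+ T cells, 3041 ± 263 CPM in plasmablasts and 4288 ± 241 CPM in B cells (mean ± SD, n = 4 mice). In cells annotated as NK cells they summed to 9637 ± 520 CPM, and the ranges of CD8+ T and NK cells overlapped (8137 to 9446 CPM and 9093 to 10337 CPM). The eEF2 group, made up of Eef2, its kinase Eef2k and its methyltransferase Eef2kmt, ran in the same order, with 773 ± 25.1 CPM in CD8+ T cells, 702 ± 38.4 CPM in CD4+ T cells, 404 ± 8.64 CPM in plasmablasts and 435 ± 15.9 CPM in B cells. eIF3 was closer together, at 2436 ± 207, 2206 ± 128, 1698 ± 193 and 1793 ± 52.8 CPM in these 4 types, with overlapping ranges between the T cell types and between plasmablasts and B cells, although CD8+ T cells had more than CD4+ T cells in each of the 4 mice. The eIF4F group of 15 genes also holds regulators, among them the eIF4E-binding proteins, so its sum is not a level of the complex alone. These genes summed to 1246 ± 55.7 CPM in CD8+ T cells, 1310 ± 50.2 CPM in CD4+ T cells, 1244 ± 24.6 CPM in plasmablasts and 1140 ± 11.8 CPM in B cells. eIF2B summed to 98.0 ± 21.2 CPM in CD8+ T cells, 100.1 ± 3.35 CPM in CD4+ T cells, 99.4 ± 21.2 CPM in plasmablasts and 95.0 ± 4.01 CPM in B cells, so the means were close but single mice lay between 69.5 and 125 CPM. Shares of ribosomal protein UMIs moved with the elongation factors: CD8+ T cells had 35.8% to 39.1%, CD4+ T cells 32.1% to 34.5%, plasmablasts 18.0% to 19.9% and B cells 24.2% to 26.5%.

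**Figure D1:**
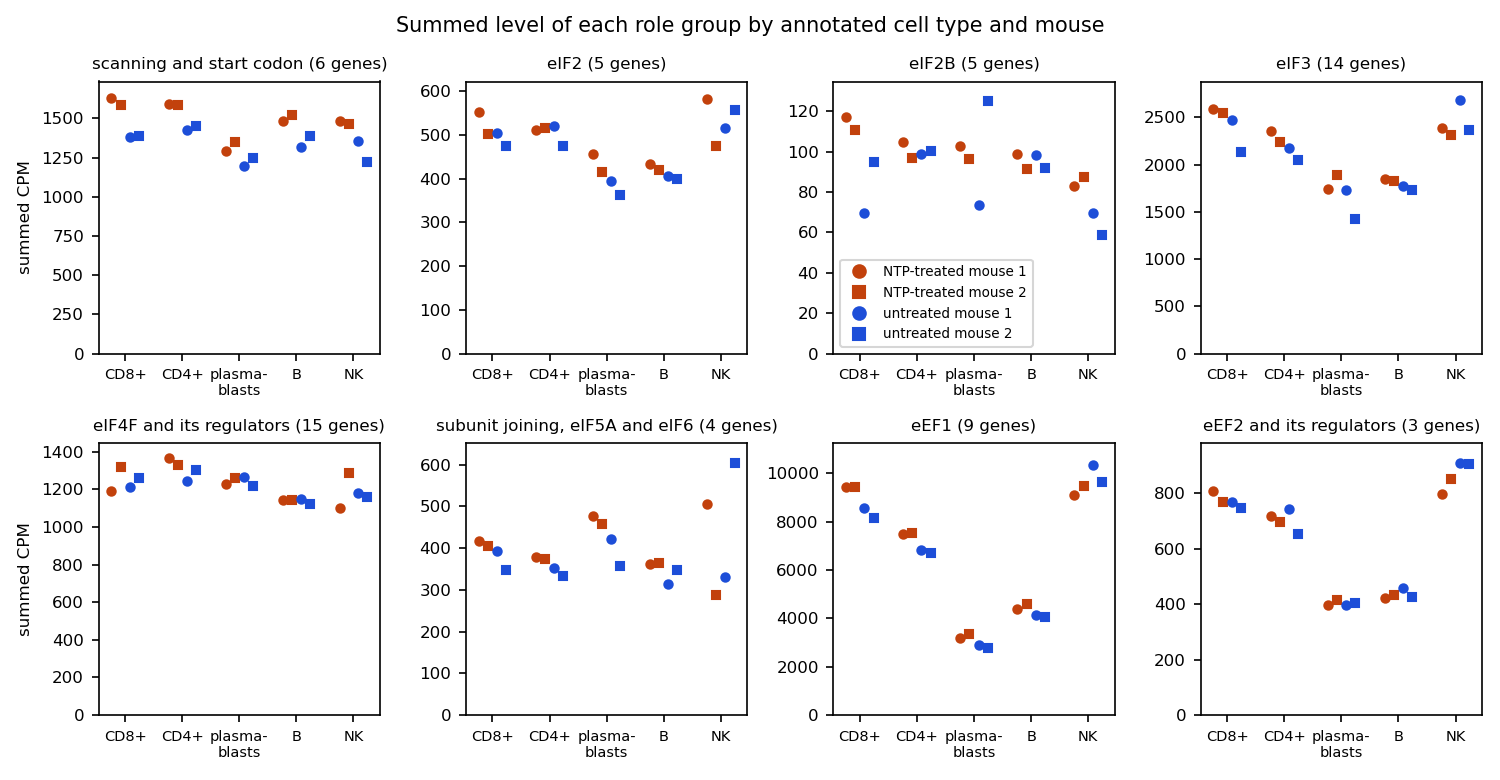
Summed level (CPM, linear axes from 0) of the members of each of 8 role groups in 5 cell types, 1 point per mouse (orange, NTP-treated; blue, untreated). The mean eEF1 sum spans 3041 CPM in plasmablasts to 9637 CPM in NK cells, while the mean sum of eIF4F and its regulators stays between 1140 and 1310 CPM.

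CD4+ T cells carried more of the elongation machinery and of several initiation factors than B cells, and far less Eif4ebp1. Of the 58 members tested with edgeR's quasi-likelihood test with the mouse as a block, 24 were higher and 4 lower in CD4+ T cells at an adjusted p under 0.05 (28 of 58, 48.3%), where 53.1% of all 9475 genes tested were called, 26.3% higher and 26.8% lower. The members called in either direction were thus no larger a share than all genes, with 41.4% of members higher and 6.90% lower. The cell types were drawn from the same counts, so the p-values describe the contrast. The median log2 fold change of the members was 0.20, against 0.01 for all genes tested. Within the groups, 5 of 8 eEF1 genes, 1 of 3 eEF2 genes, 6 of 13 eIF3 genes, 3 of 5 eIF2 genes, 6 of 15 eIF4F genes, 2 of 6 scanning genes and 1 of 3 late factors were higher, no gene of eIF2B passed, and all 4 lower genes belonged to eIF4F and its regulators. Of 84 ribosomal protein genes tested, 80 were higher and 1 lower, with a median of 0.47.

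Per mouse, in the order NTP-treated 1 and 2, then untreated 1 and 2, Eef1a1 stood at 5312, 5287, 4821 and 4715 CPM in CD4+ T cells, against 3041, 3152, 2870 and 2804 CPM in B cells. The log2 fold change was 0.76 ± 0.026 (SE, edgeR adjusted p = 1.96e-32), and every mouse had more in its CD4+ T cells. Eef1b2 stood at 1468, 1542, 1355 and 1360 CPM in CD4+ T cells, against 766, 830, 675 and 706 CPM in B cells, a log2 fold change of 0.95 ± 0.038 (edgeR adjusted p = 4.27e-29). The ranges of these genes did not touch between the types. Eef2, the translocase, had 632 to 724 CPM in CD4+ T cells, against 405 to 440 CPM in B cells (0.72 ± 0.047 on the log2 scale, edgeR adjusted p = 7.14e-20). Eef1d, another exchange subunit, was higher by 0.36 ± 0.063, whereas Eef1g, a structural subunit of eEF1B, had 322 to 375 CPM in CD4+ T cells, against 298 to 349 CPM in B cells, and was not called. Of the eIF3 subunits, Eif3h and Eif3e, both part of its octameric body, had the largest differences, 0.64 ± 0.060 and 0.63 ± 0.058. The most abundant subunit gene, Eif3f, did not follow them: it had 322 to 394 CPM in CD4+ T cells, against 363 to 388 CPM in B cells. Eef1akmt1, a lysine methyltransferase of eEF1A, stood at 17.2 to 21.3 CPM in CD4+ T cells, against 6.56 to 12.9 CPM in B cells (1.07 ± 0.21).

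The inhibitors of eIF4E went in opposite directions. Eif4ebp1, encoding 4E-BP1, stood at 3.33, 10.7, 4.46 and 5.72 CPM in CD4+ T cells, against 21.0, 23.8, 16.7 and 22.7 CPM in B cells (log2 fold change −1.83 ± 0.24, edgeR adjusted p = 1.78e-09), and fell in all 4 mice. Eif4ebp2, its paralog and the more abundant one in every type, stood at 191, 235, 176 and 212 CPM in CD4+ T cells, against 121, 135, 123 and 115 CPM in B cells (0.72 ± 0.071, edgeR adjusted p = 5.20e-13). Eif4ebp3 averaged 8.93 CPM in CD4+ T cells and 7.52 CPM in B cells and was not called. The helicase paralogs also split. Eif4a1 stood at 148, 127, 131 and 126 CPM in CD4+ T cells, against 86.1, 90.0, 79.8 and 85.7 CPM in B cells (0.64 ± 0.081, edgeR adjusted p = 7.49e-10). Eif4a2 stood at 202, 152, 166 and 153 CPM in CD4+ T cells, against 202, 194, 187 and 202 CPM in B cells (−0.22 ± 0.071, edgeR adjusted p = 0.00684), so the ranges overlapped although every mouse had less in its CD4+ T cells. DESeq2 did not call it. Eif4a3, which sits in the exon junction complex, was not called (log2 fold change −0.01 ± 0.12).

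Among the other eIF4F genes, Eif4e3, an atypical cap-binding paralog, stood at 21.6 to 23.3 CPM in CD4+ T cells, against 9.57 to 14.5 CPM in B cells (1.01 ± 0.19). Eif4g2, a scaffold homolog without the eIF4E site, and Eif4b, a helicase cofactor, were higher by 0.50 ± 0.067 and 0.47 ± 0.089. Eif4e itself had 26.7 to 43.3 CPM in CD4+ T cells, against 27.8 to 36.4 CPM in B cells, and was not called. Eif4enif1, the nuclear importer of eIF4E, and the scaffold gene Eif4g3 fell by 0.32 ± 0.13 and 0.17 ± 0.075, but neither was called by DESeq2. In all, 17 of the 28 calls remained with DESeq2, and the 11 lost were Eef1e1, Eif1, Eif1ax, Eif2s3x, Eif3d, Eif3j1, Eif4a2, Eif4e2, Eif4enif1, Eif4g3 and Eif5a. The calls for Eef1e1, Eif1, Eif2s3x, Eif3d, Eif3j1, Eif4a2, Eif4e2, Eif4enif1, Eif4g3 and Eif5a were also lost on leaving out 1 or more of the mice, where 21 to 26 members were called.

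**Figure D2:**
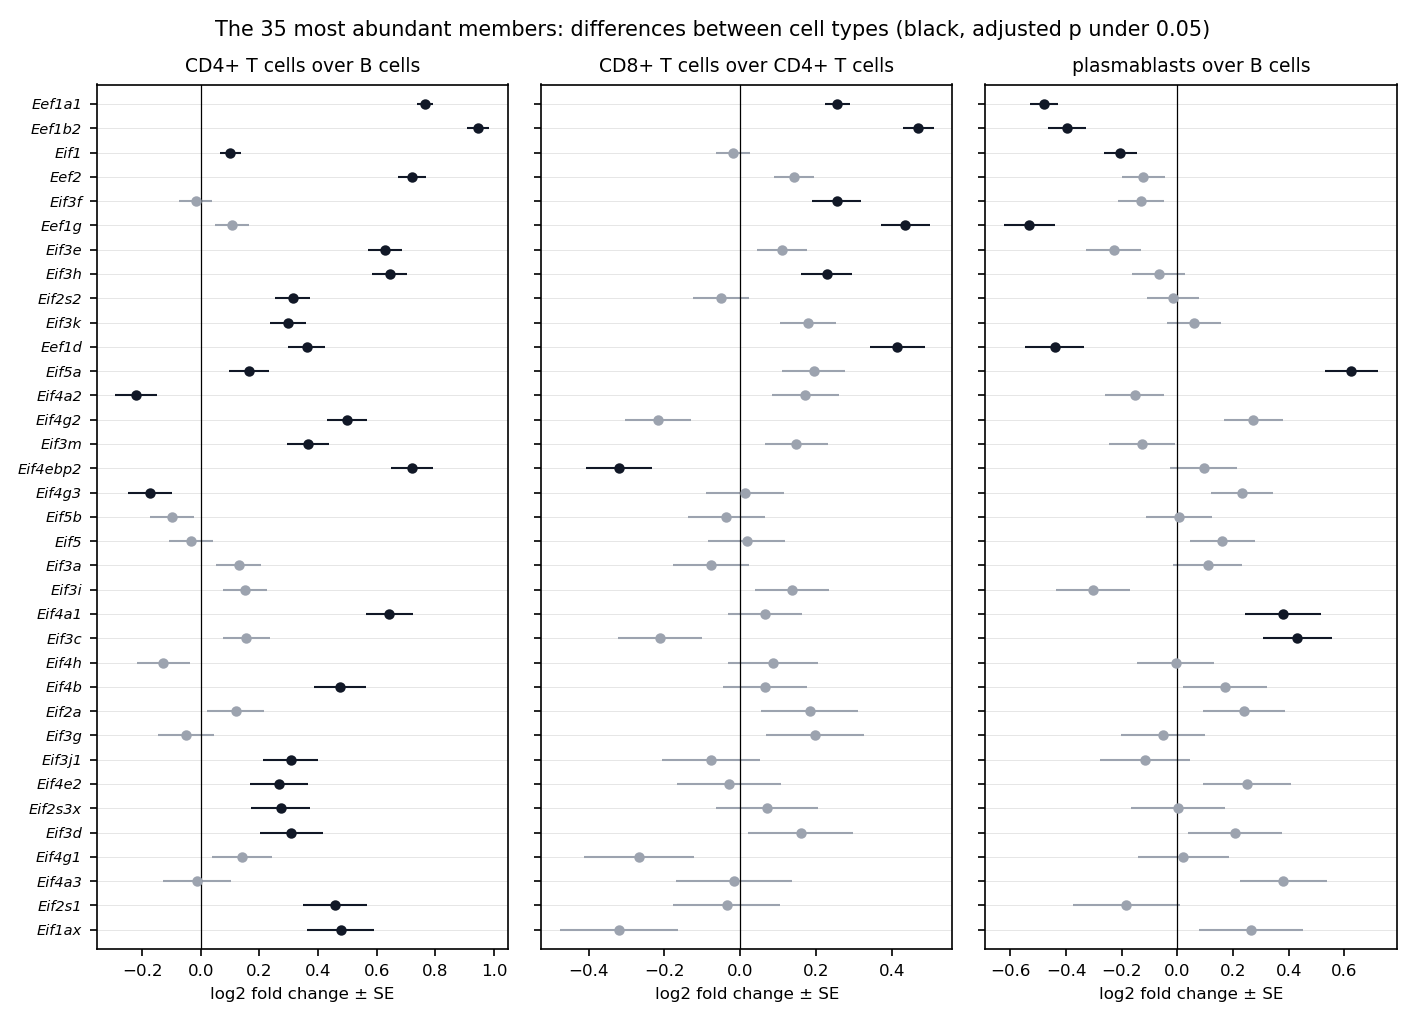
Log2 fold change ± SE (edgeR, mouse as a block) of the 35 most abundant members in 3 contrasts of cell types, CD4+ T over B cells, CD8+ over CD4+ T cells and plasmablasts over B cells, with adjusted p under 0.05 in black. Eef1a1 lies at 0.76, 0.26 and −0.48, and Eif4a2 at −0.22 in the first contrast.

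CD8+ T cells carried more of the eEF1 genes than CD4+ T cells and less Eif4ebp2 and Eif4e3. Of 56 members tested, 6 were higher and 2 lower in CD8+ T cells (8 of 56, 14.3%), where 14.4% of all 8109 genes were called (8.11% higher and 6.25% lower), so members were called about as often as all genes. The median member lay at 0.10, against 0.00 for all genes. Most of the higher members were of 1 group: 4 of 7 eEF1 genes were higher and 0 lower, 2 of 13 eIF3 genes were higher, both lower genes belonged to the 14 tested of eIF4F, and no gene of the scanning, eIF2, eIF2B, late or eEF2 groups passed. Of 84 ribosomal protein genes, 76 were higher and none lower, with a median of 0.31.

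Eef1b2 stood at 2036, 2176, 1937 and 1776 CPM in CD8+ T cells, against 1468, 1542, 1355 and 1360 CPM in CD4+ T cells (0.47 ± 0.041, edgeR adjusted p = 8.73e-21). Eef1a1 had 5541 to 6415 CPM in CD8+ T cells, against 4715 to 5312 CPM in CD4+ T cells (0.26 ± 0.033, edgeR adjusted p = 2.13e-11). Both genes were higher in the CD8+ T cells of all 4 mice, and the ranges of the types did not overlap. Eef1g, which had not been called between CD4+ T and B cells, and Eef1d were higher here by 0.44 ± 0.065 and 0.41 ± 0.072. Eif3f (0.25 ± 0.065) and Eif3h (0.23 ± 0.068) were higher too, but were not called by DESeq2 or without the mouse as a block. Eef2 had 725 to 781 CPM in CD8+ T cells, against 632 to 724 CPM in CD4+ T cells, and was not called.

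Eif4ebp2 was lower in CD8+ T cells, at 140, 179, 144 and 189 CPM, against 191, 235, 176 and 212 CPM in CD4+ T cells (−0.32 ± 0.088, edgeR adjusted p = 0.00383). The ranges overlap, but within each mouse the CD8+ T cells had less. Eif4e3 had 7.60 to 17.4 CPM in CD8+ T cells, against 21.6 to 23.3 CPM in CD4+ T cells (−0.87 ± 0.27, edgeR adjusted p = 0.0124). Neither was called by DESeq2, where 4 members remained, all of them eEF1 genes, and Eif4e3 was also lost without NTP-treated mouse 1 or untreated mouse 2, and Eif4ebp2 without NTP-treated mouse 2 or without the block. Without the block 5 members were called.

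**Figure D3:**
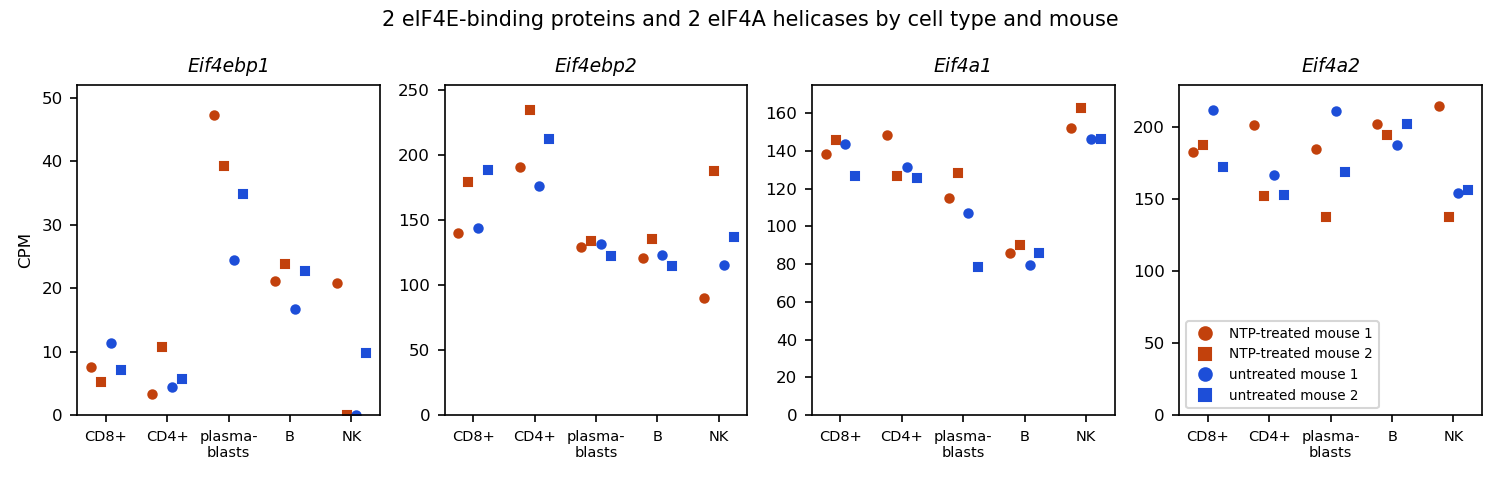
Level (CPM, linear axes from 0) of Eif4ebp1, Eif4ebp2, Eif4a1 and Eif4a2 in each mouse by cell type, 1 point per mouse. Of the 4 types tested, Eif4ebp1 is lowest in both T cell types (at most 11.3 CPM) and highest in plasmablasts (24.5 to 47.2 CPM), while Eif4a2 overlaps between CD4+ T and B cells.

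In cells annotated as plasmablasts, the eEF1 genes were lower than in B cells while Eif5a and Eif4ebp1 were higher. Of 57 members tested, 5 were higher and 5 lower (10 of 57, 17.5%), where 16.8% of all 8357 genes were called, 8.56% higher and 8.2% lower. The medians were 0.02 for members and −0.00 for all genes. The lower genes were 4 of the 7 eEF1 genes tested and Eif1, and the higher ones were Eif5a, Eif4ebp1, Eif4a1, Eef2k and Eif3c. Of 84 ribosomal protein genes, 78 were lower and none higher, with a median of −0.47.

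Eef1a1 stood at 2157, 2261, 1992 and 1912 CPM in plasmablasts, against 3041, 3152, 2870 and 2804 CPM in B cells (−0.48 ± 0.050, edgeR adjusted p = 1.46e-12). Eef1g, Eef1d and Eef1b2 fell by 0.53 ± 0.091, 0.44 ± 0.11 and 0.40 ± 0.067, all in every mouse. The annotation joins 2 clusters with unlike eEF1 levels here, which are given with the clusters below. Eef2 had 360 to 386 CPM in plasmablasts, against 405 to 440 CPM in B cells, and was not called. Eif5a, whose product carries the modified residue hypusine and helps ribosomes past difficult peptide bonds, stood at 314, 275, 227 and 215 CPM in plasmablasts, against 186, 181, 153 and 167 CPM in B cells (0.63 ± 0.096, edgeR adjusted p = 2.32e-07). Each plasmablast value lay above every B cell value. Eif4ebp1 stood at 47.2, 39.3, 24.5 and 34.9 CPM in plasmablasts, against 21.0, 23.8, 16.7 and 22.7 CPM in B cells (0.86 ± 0.23, edgeR adjusted p = 0.00434), again without overlap.

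Eef2k, the kinase that inactivates eEF2, stood at 18.1, 25.0, 6.12 and 40.7 CPM in plasmablasts, against 9.29, 10.5, 8.81 and 9.79 CPM in B cells (1.21 ± 0.33, edgeR adjusted p = 0.00543). It was higher in 3 of 4 mice and lower in untreated mouse 1. Eef2k had only 236 UMIs in all cells, so its values per mouse rest on few counts. Eif3c, a core eIF3 subunit, had 122 to 139 CPM in plasmablasts, against 95.1 to 109 CPM in B cells (0.43 ± 0.12), and Eif4a1 had 78.5 to 129 CPM in plasmablasts, against 79.8 to 90.0 CPM in B cells (0.38 ± 0.14). Without NTP-treated mouse 2 the calls for Eef2k, Eif3c, Eif4a1 and Eif1 were lost and 6 members were left. DESeq2 also called 6, without Eef2k, Eif3c, Eif4a1 and Eif4ebp1. Without NTP-treated mouse 1, Eif4ebp1, Eif4a1 and Eif1 were lost. Leaving out untreated mouse 1 ended the call of Eif4a1 and no other, and leaving out untreated mouse 2 ended that of Eef2k.

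Genes around these factors were taken from lists of 4 kinds. Their counts in CD4+ T over B cells stand beside the 53.1% of all genes called in that contrast. Among the eIF2 kinases and their stress response, 1 gene was higher and 4 lower of 8 tested in CD4+ T over B cells: Eif2ak3, the endoplasmic reticulum stress kinase PERK, fell by 2.26 ± 0.085, Atf4, the transcription factor it induces through translation, by 1.40 ± 0.10, and Eif2ak4, the amino acid sensor GCN2, by 1.01 ± 0.13. In CD8+ over CD4+ T cells 0 of 8 passed in edgeR, with 0 at an unadjusted p under 0.05. In plasmablasts over B cells, where 16.8% of all genes were called, 1 of the 8 was higher and 1 lower: Ddit3, a stress transcription factor, was higher by 0.81 ± 0.22, and Ppp1r15a, the subunit that directs a phosphatase to eIF2, fell by 1.66 ± 0.30. Of 17 mTORC1 genes tested in CD4+ T over B cells, 3 were higher and 3 lower, among them Pdcd4, an inhibitor of eIF4A, at 0.94 ± 0.052 and Sesn1, an mTORC1 inhibitor, at −0.82 ± 0.074. Of 20 other translation factors, 9 were higher and 2 lower, led by Tpt1 (0.94 ± 0.023), Pabpc1, the poly(A)-binding protein (0.75 ± 0.052), and Hbs1l, a ribosome rescue factor (0.57 ± 0.097). Tpt1 was higher in CD8+ over CD4+ T cells as well (0.12 ± 0.031) and fell in plasmablasts over B cells by 0.54 ± 0.048. Of 9 mitochondrial translation factors, 1 was higher (Mrrf, a ribosome recycling factor, 0.65 ± 0.27) and 1 lower (Gfm2, which splits mitochondrial ribosomes, −0.53 ± 0.14) in CD4+ T over B cells. In CD8+ over CD4+ T cells and in plasmablasts over B cells edgeR called none of the 9, with 1 and 0 at an unadjusted p under 0.05.

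The 12 author clusters show that the elongation factors also differ within a cell type. The eEF1 sum was lowest in cluster 6, which holds most of the plasmablasts, at 2664 CPM, and highest in cluster 11, which holds the NK cells, at 9977 CPM. Cluster 9, the other plasmablast cluster, stood at 4227 to 4593 CPM with 26.2% to 28.0% of its UMIs from ribosomal protein genes. It lay within the B cell cluster means of 3203 to 6344 CPM, on the same scale, so the low eEF1 of plasmablasts lay in cluster 6. B cells fell into cluster 2 at 3203 CPM, cluster 0 at 4537 CPM, cluster 10 at 5069 CPM and cluster 1 at 6344 CPM. CD4+ T cells fell into cluster 8 at 5503 CPM, cluster 5 at 5547 CPM, cluster 7 at 7828 CPM and cluster 3 at 9109 CPM. Between mice the values of clusters 8 and 5 overlapped, and those of cluster 3 overlapped with cluster 4, which holds the CD8+ T cells, at 9079 CPM. Cluster 1 (5952 to 6618 CPM) lay above every CD4+ value of clusters 5 and 8 (5198 to 5811 CPM), although B cells as a whole had less than CD4+ T cells.

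Across the 12 clusters the eEF1 sum followed the share of ribosomal protein UMIs, with Pearson r = 0.98 and Spearman rho = 0.99. The clusters share 4 mice and 1 scale, and both quantities are shares of the same UMIs, so this is a description without a test. r was 0.94 for eEF2, 0.92 for eIF2 and 0.88 for eIF3, and 0.54 for scanning factors, 0.50 for eIF4F, 0.30 for late factors and −0.03 for eIF2B. Of the 55 members with a mean of at least 10 CPM, 9 (16.4%) had r over 0.8, against 3.18% of 7682 genes and 80 of 84 ribosomal protein genes. These were Eef1a1, Eef1b2, Eef1d, Eef1g, Eef2, Eif2s2, Eif3e, Eif3h and Eif3m. At the other end were Eef2k (−0.76), Eif4enif1 (−0.69), Eif4g3 (−0.68) and Eif4ebp1 (−0.61). Eif4ebp1 was highest in cluster 6, at 39.7 CPM, and lowest in cluster 5, at 2.96 CPM. Within B cells it was also uneven, at 14.9 CPM in cluster 2, 24.7 CPM in cluster 0 and 29.1 CPM in cluster 1. Eif5a was likewise higher in cluster 1 (214 to 290 CPM) than in cluster 2 (113 to 138 CPM) of the B cells, and reached 287 CPM in cluster 6.

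**Figure D4:**
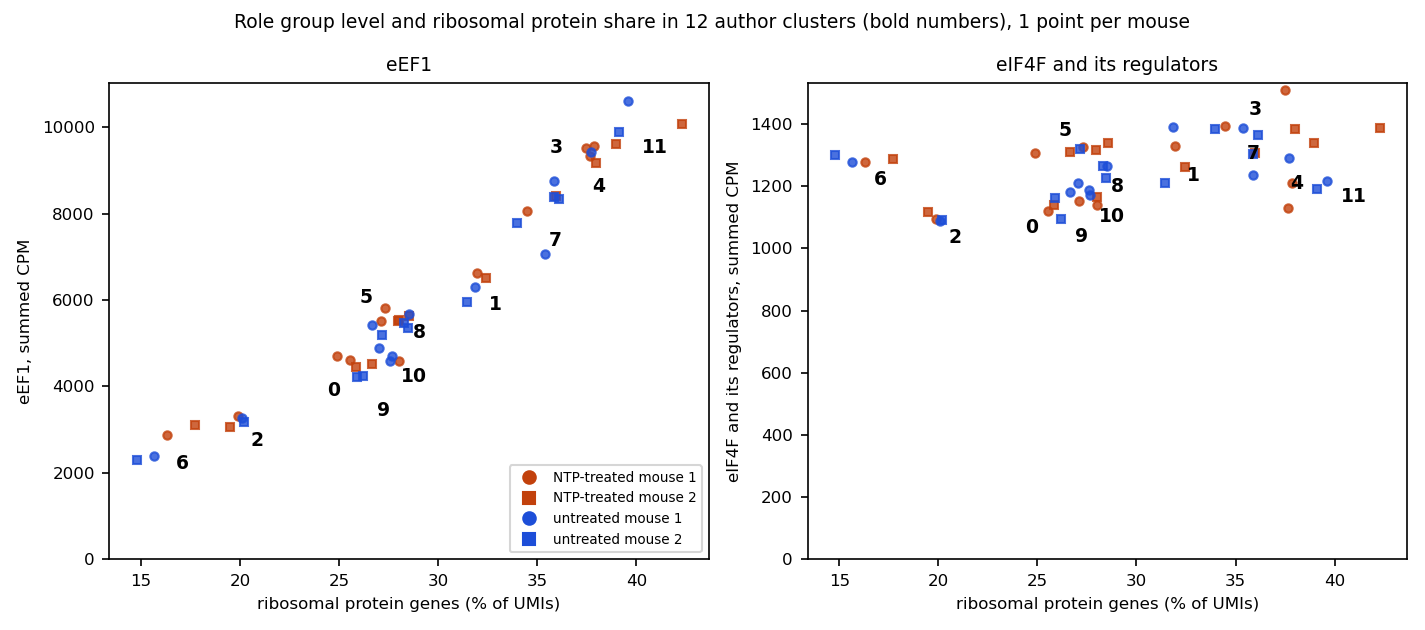
Summed level (CPM) of the eEF1 genes and of the genes of eIF4F and its regulators against the percent of UMIs from ribosomal protein genes in 12 author clusters, 1 point per mouse and cluster. The eEF1 sum climbs along the ribosomal share, with cluster means between 2664 and 9977 CPM, and the cluster means of eIF4F stay between 1098 and 1388 CPM.

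The study addressed whether treating the skin with NTP alters circulating immune cells, and at 120 min no factor gene passed the test between NTP-treated and untreated mice. With edgeR, 0 members passed an adjusted p of 0.05 in CD8+ T cells (50 tested, where 0.0294% of all 6798 genes were called), CD4+ T cells (57 tested, 0% of 8680 genes), plasmablasts (48 tested, 0.0186% of 5372 genes) and B cells (58 tested, 0% of 9903 genes). DESeq2 and limma-voom called 0 as well. At an unadjusted p under 0.05 edgeR had 5 members in CD8+ T cells (10%, against 8.44% of all genes), 7 in CD4+ T cells (12.3%, against 4.79%), 3 in plasmablasts (6.25%, against 6.79%) and 2 in B cells (3.45%, against 4.65%). In the same types DESeq2 had 1, 0, 0 and 0, and limma-voom 6, 7, 2 and 3. The shares of all genes with these methods are not given here, so those counts are not set against all genes. With 2 mice in each group the smallest p that an exact permutation test can give is 0.33, and the labels do not tell whether the mice were handled on the same day. A value that missed the threshold is therefore not shown to be equal in the groups.

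All members at an unadjusted p under 0.05 were higher in NTP-treated mice, where 4.6% of all genes in CD8+ T cells, 2.42% in CD4+ T cells, 3.11% in plasmablasts and 2.45% in B cells were higher at that level. Most other members leaned the same way, with 74% of the members tested above 0 in CD8+ T cells, 71.9% in CD4+ T cells, 68.8% in plasmablasts and 67.2% in B cells, where 50.4% to 51.1% of all genes were above 0. The median log2 fold change was 0.14 in CD8+ T cells, 0.09 in CD4+ T cells, 0.14 in plasmablasts and 0.06 in B cells, against 0.01, 0.01, 0.00 and 0.00 for all genes tested. Both NTP-treated mice lay above both untreated mice for 19 of 50 members in CD8+ T cells (38%, against 19.9% of all genes), 21 of 57 in CD4+ T cells (36.8%, against 18.1%), 21 of 48 in plasmablasts (43.8%, against 20.9%) and 18 of 58 in B cells (31.0%, against 17.7%). Both lay below for 4 members in CD8+ T cells (18.4% of all genes), 2 in CD4+ T cells (17.1%), 3 in plasmablasts (16.2%) and 6 in B cells (17.3%). All members are measured in the same libraries, so these counts are not independent.

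Eif1, whose product guards start codon choice, stood at 1345 and 1302 CPM in CD8+ T cells of NTP-treated mice, against 1066 and 1111 CPM in untreated mice. The log2 fold change was 0.28 ± 0.11 (edgeR unadjusted p = 0.0130, adjusted p = 0.54). In CD4+ T cells it stood at 1284 and 1304 CPM in NTP-treated mice, against 1131 and 1171 CPM in untreated mice (0.17 ± 0.076, edgeR unadjusted p = 0.0469, adjusted p = 0.90). It was above both untreated mice in plasmablasts and B cells too, with 992 and 1050 CPM, against 857 and 976 CPM, and with 1187 and 1243 CPM, against 1030 and 1104 CPM. The 6 scanning genes summed were higher in both NTP-treated mice in all 5 cell types, NK cells included (1481 and 1464 CPM, against 1356 and 1219 CPM).

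Eef1a1 stood at 6415 and 6310 CPM in CD8+ T cells of NTP-treated mice, against 5763 and 5541 CPM in untreated mice (0.17 ± 0.081, edgeR unadjusted p = 0.0380, adjusted p = 0.59). In CD4+ T cells it stood at 5312 and 5287 CPM, against 4821 and 4715 CPM (0.15 ± 0.059, edgeR unadjusted p = 0.0248, adjusted p = 0.90). The whole eEF1 sum was higher in both NTP-treated mice in CD8+ T cells (9415 and 9446 CPM, against 8582 and 8137 CPM), CD4+ T cells (7508 and 7546 CPM, against 6810 and 6720 CPM), plasmablasts (3178 and 3336 CPM, against 2889 and 2760 CPM) and B cells (4394 and 4577 CPM, against 4126 and 4057 CPM). In NK cells the order was the opposite, with 9093 and 9483 CPM in NTP-treated mice, against 10337 and 9635 CPM in untreated mice. Eef1b2 had the second lowest p in B cells, at 766 and 830 CPM in NTP-treated mice, against 675 and 706 CPM in untreated mice (0.21 ± 0.096, edgeR unadjusted p = 0.0435, adjusted p = 0.93). Eef2 overlapped between the groups in CD4+ T cells, with 697 and 674 CPM, against 724 and 632 CPM. The sums of eIF3 and of the late group (subunit joining, eIF5A and eIF6) were also higher in both NTP-treated mice in the 4 types tested. In B cells eIF3 had 1844 and 1829 CPM, against 1771 and 1730 CPM in untreated mice. The late group there had 362 and 365 CPM, against 313 and 348 CPM. Sums of some other roles overlapped in some types. In B cells eIF4F had 1143 and 1142 CPM in NTP-treated mice, against 1151 and 1123 CPM in untreated mice. The eEF2 group there had 424 and 433 CPM, against 458 and 426 CPM. In CD4+ T cells eIF4F did not overlap (1365 and 1327 CPM, against 1245 and 1303 CPM).

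The other members at an unadjusted p under 0.05 were scattered over the roles. In B cells the lowest p was that of Eif3k, another eIF3 subunit, at 226 and 243 CPM in NTP-treated mice, against 198 and 191 CPM in untreated mice (0.27 ± 0.10, edgeR unadjusted p = 0.0190). In CD4+ T cells Eif1ax, the X-linked eIF1A gene, stood at 67.5 and 65.2 CPM in NTP-treated mice, against 52.2 and 46.4 CPM in untreated mice (0.43 ± 0.15, edgeR unadjusted p = 0.0173), and Eif4a3 at 65.1 and 56.3 CPM, against 37.6 and 48.9 CPM (0.50 ± 0.18, edgeR unadjusted p = 0.0197). The remaining members there were Eif3h (0.24), Eif4ebp3 (0.94) and Eef1d (0.23). In CD8+ T cells they were Eif3h (0.32), Eif3k (0.31) and Eif2b5, the catalytic subunit of eIF2B (0.83), with 33.4 and 34.9 CPM in NTP-treated mice, against 22.6 and 16.6 CPM in untreated mice. In plasmablasts they were Eif3l (0.90), Eif3i (0.54) and Eif5a (0.40), the last with 314 and 275 CPM in NTP-treated mice, against 227 and 215 CPM in untreated mice. The adjusted p of all these members lay between 0.54 and 0.93. Values of the regulator Eif4ebp2 overlapped between the groups in all 4 types. Eif4ebp1 stood at 47.2 and 39.3 CPM in plasmablasts of NTP-treated mice, against 24.5 and 34.9 CPM in untreated mice (0.52 ± 0.41, edgeR unadjusted p = 0.218, adjusted p = 0.84), overlapped in B cells, and was too low for the test in both T cell types.

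**Figure D5:**
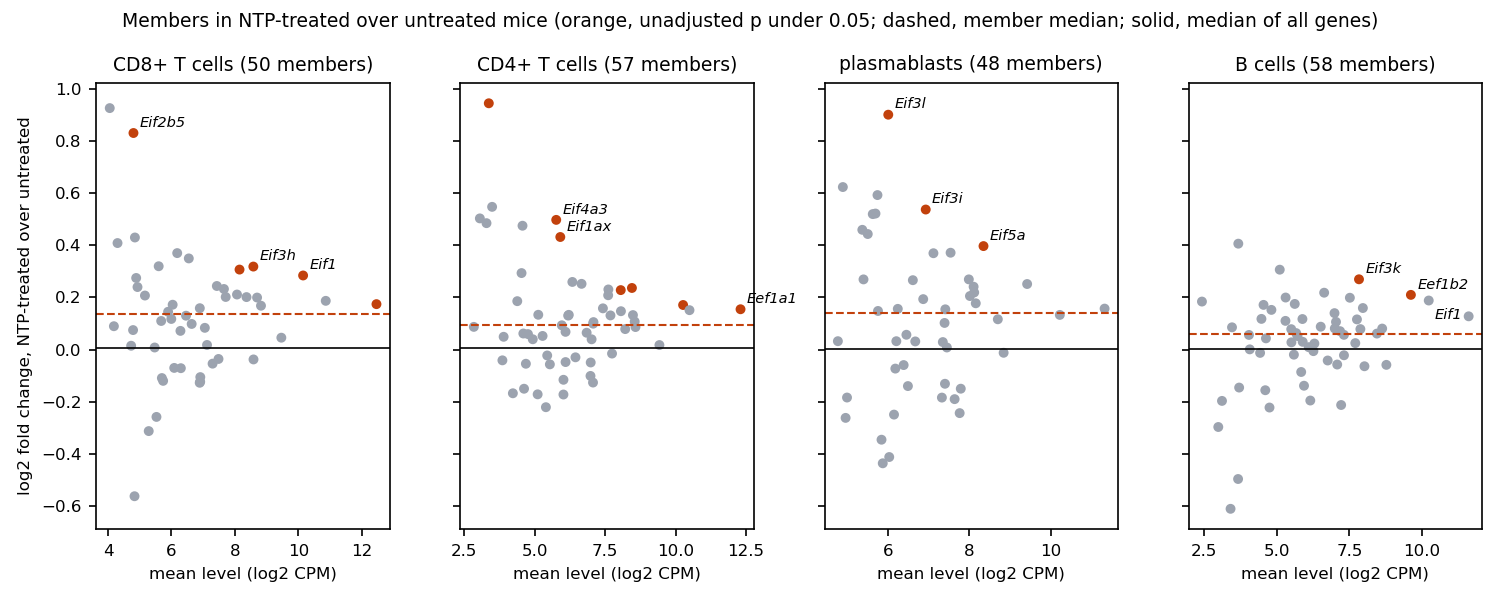
Log2 fold change of NTP-treated over untreated mice for each member tested, against its mean level (log2 CPM), in 4 cell types. Members with an unadjusted p under 0.05 (orange) all lie above 0, none passes an adjusted p of 0.05, and the member median (dashed) lies at 0.06 to 0.14, above the median of all genes (solid).

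Ribosomal protein genes leaned the same way. They made up 37.9% and 39.1% of UMIs in CD8+ T cells of NTP-treated mice, against 35.9% and 35.8% in untreated mice, and 33.1% and 34.5% in CD4+ T cells, against 32.1% and 32.4%. In plasmablasts (18.8% and 19.9%, against 19.1% and 18.0%) and B cells (24.9% and 26.5%, against 24.2% and 25.1%) the mice overlapped. Their median log2 fold change was 0.20 in CD8+ T cells, 0.12 in CD4+ T cells, 0.09 in plasmablasts and 0.10 in B cells, with 60, 17, 3 and 0 genes at an unadjusted p under 0.05 and none called by edgeR. Cell mixture moved between the mice as well. Cluster 2, the B cell cluster lowest in eEF1, held 285 and 189 cells in the NTP-treated mice, which had 833 and 958 B cells. In the untreated mice it held 234 and 260 cells, beside 498 and 841 B cells. Over all mice its cells were 964 B cells and 4 annotated plasmablasts. Set against the B cells of each mouse, these shares overlapped between the groups, with NTP-treated mouse 1 above untreated mouse 2. Cluster 3, the CD4+ cluster highest in eEF1, held 216 of 395 and 224 of 392 CD4+ T cells of the NTP-treated mice, against 121 of 301 and 223 of 429 of the untreated mice. Here both NTP-treated mice had the larger share. Gene length moved too: across all genes tested, the genomic span and the log2 fold change had Spearman rho = −0.33 in CD8+ T cells, −0.27 in CD4+ T cells, −0.29 in plasmablasts and −0.29 in B cells, and the members tested were shorter than the genes tested (a median of 17425 bases, against 24662 bases, in B cells). Among the members tested rho was −0.29 in CD8+ T cells, −0.09 in CD4+ T cells, −0.18 in plasmablasts and −0.22 in B cells. Genes are not independent replicates, so no p is given. Apart from the fits within clusters, the part of these 3 in the members' values was not tested.

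The mice also fell on 2 sides that cross the groups, by Rpl35, a ribosomal protein gene chosen after its values were seen. It stood at 1465 and 2834 CPM in B cells of NTP-treated mice 1 and 2, against 1132 and 2118 CPM in those of untreated mice 1 and 2, and was lower in both mice 1 in the 4 types tested. Median UMIs per cell split the mice in the same way, with both mice 1 above both mice 2 in the 4 types tested. The labels name no batch. With the side as a term in the edgeR fit, 0 members were called in each type, with 5 in CD8+ T cells, 10 in CD4+ T cells, 3 in plasmablasts and 8 in B cells at an unadjusted p under 0.05, and member medians of 0.14, 0.10, 0.14 and 0.06. The share of all genes at that level in this fit is not given here, and the added term leaves little residual freedom. The counts at an unadjusted p are therefore not read as a rise over the fit without the side. Both NTP-treated mice had a higher eEF1 sum than both untreated mice in these types. The part of the sides in these sums was not tested.

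Within the 9 clusters that had at least 20 cells in every mouse, 0 of 412 tests of members passed an adjusted p of 0.05 with edgeR, with 22 at an unadjusted p under 0.05. DESeq2 also called 0, with 4 at an unadjusted p under 0.05, and its share of all genes is not given here. With edgeR the share of all genes at an unadjusted p under 0.05 was 4.82% in cluster 0, 4.59% in cluster 1, 3.39% in cluster 2, 4.76% in cluster 3, 8.19% in cluster 4, 4.21% in cluster 5, 6.4% in cluster 6, 3.28% in cluster 8 and 4.38% in cluster 9. All genes were called at 0% in clusters 3, 4, 5 and 8, at 0.0391% in cluster 0, 0.0306% in cluster 1, 0.0125% in cluster 2, 0.0222% in cluster 6 and 0.0756% in cluster 9. The lean seen in whole types was not present in each of their clusters. The member median was 0.03 in cluster 0, −0.03 in cluster 1 and −0.04 in cluster 2, and the eEF1 sums overlapped in cluster 0 (4613 and 4440 CPM in NTP-treated mice, against 4880 and 4215 CPM in untreated mice) and cluster 2 (3320 and 3048 CPM, against 3274 and 3171 CPM), but not in cluster 1 (6618 and 6502 CPM, against 6304 and 5952 CPM). Of the CD4+ clusters tested, the member median was 0.08 in cluster 3 and 0.03 in clusters 5 and 8. CD4+ cluster 7, with 19 cells in untreated mouse 1, was not tested. Its eEF1 sums did not overlap (8064 and 8411 CPM in NTP-treated mice, against 7056 and 7780 CPM in untreated mice). Among those tested, eEF1 overlapped in cluster 3 (9523 and 9162 CPM in NTP-treated mice, against 9422 and 8330 CPM in untreated mice) and cluster 5 (5811 and 5502 CPM, against 5676 and 5198 CPM) but not in cluster 8 (5502 and 5617 CPM, against 5418 and 5476 CPM). In plasmablast cluster 9 the member median was −0.03 and eEF1 overlapped (4593 and 4506 CPM, against 4589 and 4227 CPM). The largest member medians were 0.26 in cluster 6 and 0.14 in cluster 4. In cluster 6 eEF1 summed to 2866 and 3095 CPM in NTP-treated mice, against 2388 and 2305 CPM in untreated mice. The lowest p of any cluster was that of Eif2b5 in cluster 3 (1.85 ± 0.44, edgeR unadjusted p = 0.000290, adjusted p = 0.64).

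Whether the NTP difference was unequal in CD4+ T and B cells was tested as an interaction over 10143 genes. With edgeR 0 of 59 members passed, where 0.00986% of all genes were called, and 1, Eif4a3, had an unadjusted p under 0.05 (0.57 ± 0.23 on the log2 scale, unadjusted p = 0.0159, adjusted p = 1), where 3.89% of all genes had one. DESeq2 called 0 members, with 0 at an unadjusted p under 0.05.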

How the data were processed

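Peripheral blood mononuclear cells of 4 mice were profiled with 10x Genomics 3′ libraries. The deposited table holds raw UMI counts per gene and cell, which the authors made with Cell Ranger 7.1.0 (mm10) and filtered with Seurat 4.3.0 on genes and mitochondrial share per cell. Their methods also name removal of ambient RNA and of doublets, and whether the counts include the ambient RNA step is not stated. The deposited cell table gives the authors' clusters, cell types, count totals and the percent of mitochondrial counts. Totals of all 5794 cells matched.

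The counts of each mouse were added up within a cell type, or within an author cluster with at least 20 cells in every mouse, and tested in R 4.3.3 with the quasi-likelihood test of edgeR 4.0.16 (TMM, filterByExpr, Benjamini-Hochberg over all genes tested). Treatment was compared within each type or cluster. Cell types were compared with the mouse as a block, since 1 animal gave both: deviations from the type means correlated at 0.135 to 0.331 (CD4+ T and B cells), 0.224 to 0.405 (CD8+ and CD4+ T cells) and 0.0453 to 0.428 (plasmablasts and B cells), over genes above 50 CPM. CPM shown were scaled jointly by TMM over all types or all clusters, and fold changes come from each fit. The deposit's labels do not state that the animals were handled independently, so p-values measure the spread between these mice. DESeq2 1.42.0 and limma-voom (limma 3.58.1), other scalings, no filter, equal cells per mouse, no block and leaving out each mouse were tried. The test was run on simulated data first.

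The members and gene lists were chosen with earlier results of these data known. Named were the most abundant member of each role, the members with the smallest p under treatment, up to 5 called members per direction and cell type contrast that lay on 1 side in all 4 mice, fixed paralogs and regulators, and the genes with the smallest p of the other lists. The remaining members in the text were named after their values were seen. Ribosomal protein genes were those of the form Rpl or Rps, with 10 of 96 matches (kinases and a binding protein) left out. Gene positions are from GENCODE and start sequences from RefSeq, both on GRCm38. The study's tests over single cells were not used, since cells of 1 mouse are not replicates.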

Additional observations from a re-analysis of the deposited data

Results flagged for a closer look

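Eif1ax, encoding eIF1A, lay on opposite sides in CD4+ T cells and plasmablasts. In CD4+ T cells its log2 fold change of NTP-treated over untreated mice was 0.43, with 67.5 and 65.2 CPM in NTP-treated mice, against 52.2 and 46.4 CPM in untreated mice. In plasmablasts it was −0.41, with 47.2 and 41.1 CPM in NTP-treated mice, against 67.3 and 49.4 CPM in untreated mice. Both mice of a group moved together in each type, neither value passed an adjusted p of 0.05 with edgeR, and the difference between the types was not tested.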

How the results depend on the processing

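Scaling by RLE and leaving ribosomal protein and mitochondrially encoded genes out of the scaling kept every count of called members within 1.5 times. For CD4+ T over B cells, where 28 members were called, DESeq2 called 17, the fit with no replicate block 24 and the fits without 1 mouse 21 to 26. For CD8+ over CD4+ T cells, where 8 were called, DESeq2 called 4, no block 5 and leaving out a mouse 7 to 9. For plasmablasts over B cells, where 10 were called, DESeq2 called 6, no block 9 and leaving out a mouse 6 to 10. The cause of these drops was not tested. Counts of members for treatment, its interaction and the clusters were 0 under all alternatives, including no block for the interaction. No paired analysis was possible because the NTP-treated and untreated mice are different animals, numbered here in the order of their deposit, which applies to the treatment comparisons alone. The sides of the mice by Rpl35, an alternative chosen after seeing the data, left the treatment counts at 0 when used as a term.

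Signs turned only for members that had not passed the test. These were Eif1b in CD4+ T over B cells (−0.000685 with DESeq2, −0.00243 with no filter), and in plasmablasts over B cells Eif2s3x (−0.00191 without ribosomal protein and mitochondrially encoded genes, −0.0583 with no filter) and Eif6 (−0.0380 with no filter). Leaving out a mouse gave, in CD4+ T over B cells, log2 fold changes of −0.0381 to 0.0664 for Eif1b, −0.144 to 0.152 for Eif4a3, −0.00992 to 0.479 for Eif4ebp3 and −0.00913 to 0.0862 for Eif6. In CD8+ over CD4+ T cells it gave −0.0524 to 0.00251 for Eif1, −0.0732 to 0.320 for Eif1b and −0.0788 to 0.119 for Eif4a3, and in plasmablasts over B cells −0.229 to 0.0300 for Eif1b, −0.139 to 0.0897 for Eif2s3x and −0.0612 to 0.154 for Eif6. For treatment it gave −0.0963 to 0.176 for Eif1ax in B cells and −0.532 to 0.196 in CD8+ T cells. An alternative chosen after seeing the data, CPM without TMM, put the eEF1 sum at 8151 CPM in CD8+ T cells, 3493 CPM in plasmablasts and 8693 CPM in NK cells, with the order of the tested types unchanged. Low members such as Eif5a2 and Eif3j2 were limited by depth.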

Other observations

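Between NTP-treated and untreated mice edgeR called 0 genes of the stress response, mTORC1, other translation factor and mitochondrial lists in the 4 cell types tested, with 0 to 2 genes of a list at an unadjusted p under 0.05. The mitochondrial translation factors tested had a median log2 fold change of −0.23 in CD8+ T cells (4 genes), −0.02 in CD4+ T cells (9 genes), −0.34 in plasmablasts (2 genes) and −0.01 in B cells (10 genes). These medians rest on few genes. The 13 to 22 cells per mouse annotated as NK cells had the highest eEF2 sum of the 5 types, 866 ± 53.8 CPM (SD, n = 4 mice), and the lowest eIF2B sum, 74.6 ± 13.2 CPM.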
